A study of Mus musculus with 8 samples.

Results

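The genes described here are 10 members of the Notch pathway: the receptors Notch1, Notch2, Notch3 and Notch4, the ligands Jag1, Jag2 and Dll1, and the target genes Hes1, Hey1 and Heyl. They are defined by their names, and a row of the table counted for a member when its annotation named that gene alone. All 10 were measured, among 18848 genes tested in all, on 276 of the 307991 rows that named 1 gene, where a row is 1 probe set, most often directed at a single exon. The samples were primary mouse embryonic fibroblasts, connective tissue cells of the mouse embryo bought from a supplier and grown in DMEM with serum at 37 °C and 5% CO2. The hypoxia group (4 arrays) was kept in 1% oxygen for 24 h, and the normoxia group (4 arrays) in atmospheric oxygen for the same time. No strain, genotype, age, batch or scan date was given in the sources used here. RNA was amplified from 50 ng per sample and hybridised to Mouse Exon 1.0 ST arrays. The study's methods call the replicates biological, but nothing in the labels said whether they came from separate isolations of cells, so p-values measure the spread between these arrays.

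Notch receptors are transmembrane proteins that are bound by ligands of the Delta and Jagged families on a neighbouring cell. Binding leads to cleavage by ADAM proteases and then by gamma-secretase, and the freed intracellular domain enters the nucleus, where it joins the DNA-binding protein RBPJ and Mastermind proteins and turns on target genes. The best known targets are the Hes and Hey genes, which code for basic helix-loop-helix repressors. In mesenchymal cells the pathway acts on differentiation and on the contractile phenotype, and Notch3 and Heyl are known from mural cells of vessels.

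Heyl was lower in hypoxia and was the only member that passed the test. Jag1 and Notch1 were lower on every hypoxia array than on any normoxia array, but missed the threshold. Fold changes of Notch2, Notch4, Dll1 and Hey1 were negative with overlapping groups, and those of Notch3, Jag2 and Hes1 lay near 0. The comparison asked whether 24 h of low oxygen changed the mRNA level of these genes. Each gene was given 1 value per array, the mean of the log2 intensities of its rows whose 8-array mean was at or above the table median (2.35), and log2 fold changes are hypoxia over normoxia. By limma with Benjamini-Hochberg adjustment over all genes and a threshold of 0.05, 1 of the 10 members was lower and 0 were higher, where 0.796% of all genes were lower and 0.531% higher. At an unadjusted p under 0.05, 3 members were lower and 0 higher, against 20.4% and 3.02% of all genes. In either direction 1.33% of all genes were called.

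The promoters of Jag1 and Notch1, the ligand and the receptor that were lower on every hypoxia array, are shown beside those of Jag2 and Notch3, members of the same families whose groups overlapped. Each is the 250 bases before the annotated start, from RefSeq with build GRCm38.p6, all on the minus strand, at chr2:137116521-137116770 for Jag1, chr2:26503823-26504072 for Notch1, chr12:112929496-112929745 for Jag2 and chr17:32166891-32167140 for Notch3. Capitals mark the core letters of the hypoxia response element, ACGTG or GCGTG, read on either strand, so that a match on the other strand appears as CACGT or CACGC.
Jag1 promoter: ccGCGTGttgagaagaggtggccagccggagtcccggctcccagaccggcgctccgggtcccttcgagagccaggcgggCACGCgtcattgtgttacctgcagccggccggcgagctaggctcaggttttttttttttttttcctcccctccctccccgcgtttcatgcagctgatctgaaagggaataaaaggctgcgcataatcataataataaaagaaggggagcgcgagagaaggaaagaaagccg
Notch1 promoter: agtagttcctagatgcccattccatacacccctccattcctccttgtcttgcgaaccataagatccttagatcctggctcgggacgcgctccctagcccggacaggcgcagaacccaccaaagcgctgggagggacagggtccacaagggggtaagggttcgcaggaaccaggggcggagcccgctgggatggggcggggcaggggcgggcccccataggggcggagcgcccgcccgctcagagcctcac
Jag2 promoter: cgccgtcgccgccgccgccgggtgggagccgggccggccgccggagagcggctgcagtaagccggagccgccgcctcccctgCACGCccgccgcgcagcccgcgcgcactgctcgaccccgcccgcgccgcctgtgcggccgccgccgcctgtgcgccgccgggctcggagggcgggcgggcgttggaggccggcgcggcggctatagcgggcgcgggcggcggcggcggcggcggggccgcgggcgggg
Notch3 promoter: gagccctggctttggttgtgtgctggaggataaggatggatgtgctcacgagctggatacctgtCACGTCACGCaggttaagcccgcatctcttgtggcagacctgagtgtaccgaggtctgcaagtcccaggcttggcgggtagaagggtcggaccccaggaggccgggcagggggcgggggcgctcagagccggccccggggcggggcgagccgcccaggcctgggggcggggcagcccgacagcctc
The Jag1 window held 2 matches, starting 248 and 171 bases before the start. The Jag2 window held 1 match, at 168 bases, and the Notch3 window held 2 adjoining matches, at 186 and 181 bases. The Notch1 window held 0. The core letters occur in 38.6% of the 32851 promoter windows of this length in the table, and the letters TGGGAA, bound by RBPJ, in 21.6%. None of these 4 windows held TGGGAA on either strand. Of the members not shown, the Notch2 and Notch4 windows held 1 match of the hypoxia core each. The 2 Dll1 windows held 2 each, and none of these windows held TGGGAA. Whether matches went with the fold changes was not tested. Matching by symbol found 7 of the 10 members in the table, and Hes1, Hey1 and Heyl had no entry.

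Among the receptors, Notch1 is the one most widely studied in development and cancer. Its gene value over 38 rows was 3.83, 3.79, 4.11 and 3.92 on normoxia arrays 1 to 4 and 3.64, 3.29, 3.38 and 3.09 on hypoxia arrays 1 to 4. All hypoxia arrays thus lay below all normoxia arrays, with array 1 the highest in hypoxia. The mean was 3.91 ± 0.14 in normoxia and 3.35 ± 0.23 in hypoxia (SD, n = 4), a log2 fold change of -0.57 ± 0.15 (SE, 95% interval -0.90 to -0.23, adjusted p = 0.085). Under the 19 alternatives the adjusted p of Notch1 ran from 0.059 to 0.31. Notch2, which is expressed in many mesenchymal and epithelial tissues, had gene values over 36 rows of 3.95, 4.01, 4.07 and 3.79 in normoxia and 3.79, 3.83, 3.59 and 3.43 in hypoxia. Hypoxia arrays 1 and 2 lay above normoxia array 4, so the groups overlapped. The fold change of Notch2 was -0.30 ± 0.13 (95% interval -0.60 to 0.0029, adjusted p = 0.22).

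Notch3, the receptor of mural cells, lay between 3.65 and 3.89 in normoxia and between 3.47 and 3.83 in hypoxia. The fold change was -0.07 ± 0.12 (95% interval -0.35 to 0.22, adjusted p = 0.77), and its sign turned with the scaling between arrays (0.01 after quantile normalization, 0.09 after cyclic loess and 0.12 after centring on the array median). Notch4, best known from endothelium, was at 4.12, 3.43, 3.78 and 4.03 in normoxia and at 3.53, 3.75, 3.51 and 3.64 in hypoxia. Its spread was wider in normoxia (SD 0.31) than in hypoxia (SD 0.11), and array 2 of normoxia was the lowest of all 8. The fold change of Notch4 was -0.23 ± 0.16 (adjusted p = 0.42).

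**Figure D1:**
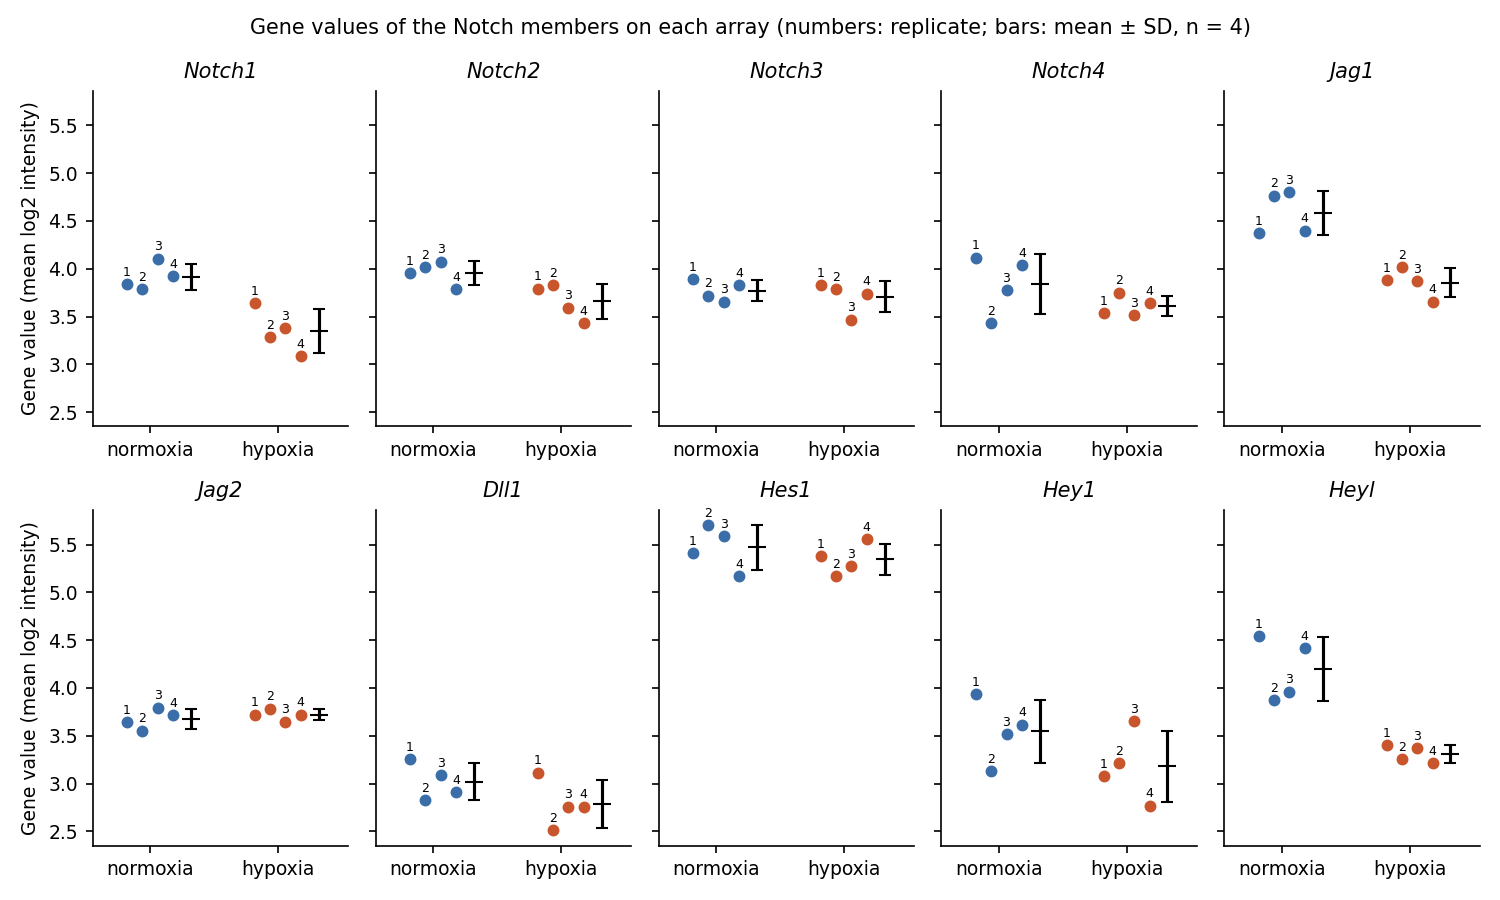
Gene values (mean log2 intensity over rows, y axis) of the 10 members on each array, with points numbered by replicate and bars giving mean ± SD for the 4 arrays of a group. The groups are apart for Notch1, Jag1 and Heyl and overlap for the other 7 members.

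Of the ligands, Jag1 codes for Jagged1, a membrane ligand with roles in vessel and bile duct formation. Its gene value over 31 rows was 4.37, 4.77, 4.80 and 4.40 on normoxia arrays 1 to 4 and 3.88, 4.02, 3.87 and 3.65 on hypoxia arrays 1 to 4. The groups did not overlap. The mean was 4.58 ± 0.23 in normoxia and 3.85 ± 0.15 in hypoxia (SD, n = 4), a log2 fold change of -0.73 ± 0.15 (SE, 95% interval -1.06 to -0.39), or 1.66-fold lower, with an adjusted p of 0.054. Only 3.32% of all genes had a lower fold change than Jag1. The adjusted p of Jag1 moved across the threshold with the settings: it was below 0.05 under 5 of 19 alternatives, among them the stricter filter on dim rows (0.023), and ran from 0.023 to 0.21 over all of them.

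Jag2 codes for the other Jagged ligand. Its gene value over 17 rows lay between 3.55 and 3.79 in normoxia and between 3.65 and 3.78 in hypoxia, and the fold change was 0.04 ± 0.11 (95% interval -0.20 to 0.29, adjusted p = 0.83). The difference between Jag1 and Jag2 in fold change was not tested. Dll1, a Delta ligand, was at 3.26, 2.82, 3.09 and 2.91 in normoxia and 3.11, 2.51, 2.76 and 2.76 in hypoxia. Its mean of 2.90 over the 8 arrays lay below the median of 3.02 for 316 odorant and pheromone receptor genes used here as a background. Of its 7 rows, probe set 5347767 was the brightest, at 4.69, 4.37, 4.76 and 2.98 in normoxia and 5.49, 2.50, 4.13 and 3.04 in hypoxia. Dll1 had a fold change of -0.23 ± 0.16 (adjusted p = 0.40), which turned to 0.04 without the filter on dim rows.

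Of the targets, Heyl codes for a Hey-family repressor. Its gene value over 7 rows was 4.54, 3.87, 3.96 and 4.42 on normoxia arrays 1 to 4 and 3.40, 3.25, 3.37 and 3.21 on hypoxia arrays 1 to 4. All hypoxia arrays lay below all normoxia arrays, and normoxia arrays 1 and 4 lay above arrays 2 and 3. Heyl fell from 4.20 ± 0.33 to 3.31 ± 0.09 (SD, n = 4), a log2 fold change of -0.89 ± 0.17 (SE, 95% interval -1.27 to -0.50), or 1.85-fold lower, with an adjusted p of 0.046. Only 1.67% of all genes had a lower fold change, and Heyl ranked 222 by p among all genes. The call did not hold when any 1 of the 8 arrays was left out (adjusted p 0.052 to 0.14) and held under 4 of the 19 alternatives. Likewise, the mean of the 316 receptor genes was 3.56 and 3.44 on normoxia arrays 1 and 4. On normoxia arrays 2 and 3 it was lower, at 3.12 and 3.31. On the hypoxia arrays it lay between 3.18 and 3.43, and Heyl, at 3.21 to 3.40 there, lay within that range of the background. The hypoxia mean of Notch1, 3.35, lay in that range too, and that of Hey1, 3.18, lay at its lower edge. The receptor means of the groups overlapped, and the values of Heyl did not. The part of this background in the result was not tested.

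Hes1, a repressor that Notch signalling induces in many cell types, had gene values over 7 rows of 5.41, 5.70, 5.59 and 5.17 in normoxia and 5.38, 5.17, 5.27 and 5.56 in hypoxia. The groups overlapped, with hypoxia array 4 above normoxia arrays 1 and 4. The fold change of Hes1 was -0.13 ± 0.15 (95% interval -0.47 to 0.22, adjusted p = 0.64), with the sign turning to 0.04 after cyclic loess, 0.06 after centring and 0.04 without the filter. Hey1, the other Hey-family repressor, rested on 5 rows and was at 3.93, 3.13, 3.51 and 3.61 in normoxia and 3.08, 3.22, 3.65 and 2.77 in hypoxia. Hypoxia array 3 lay above 3 of the 4 normoxia arrays. The fold change of Hey1 was -0.37 ± 0.22, the largest SE among the members (95% interval -0.87 to 0.13, adjusted p = 0.34).

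**Figure D2:**
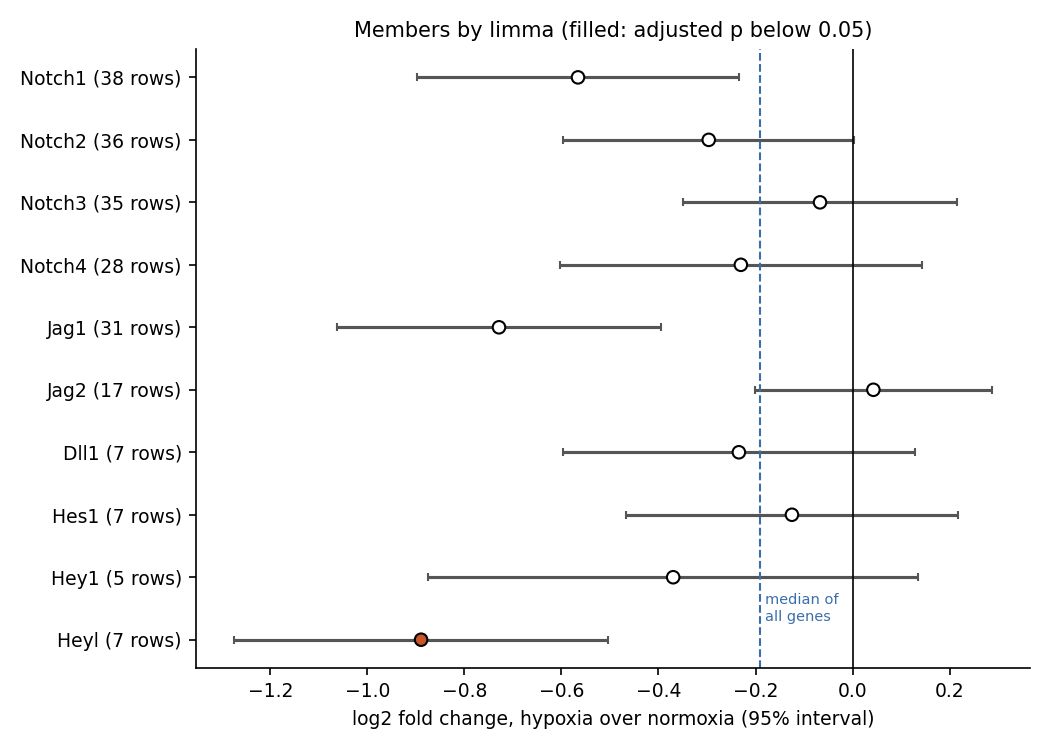
Log2 fold changes of the 10 members (x axis, hypoxia over normoxia) with 95% intervals by limma, with the number of rows behind each gene. The intervals of Notch1, Jag1 and Heyl lie below 0, Heyl alone is filled as past the threshold, and the dashed line is the median of all genes at -0.19.

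The members' fold changes were read beside those of all genes tested. Of all genes tested, 75.7% had a negative fold change, with a median of -0.19, and of the members 9 of 10 were negative, with a median of -0.27. Relative to that median the fold change was -0.70 for Heyl, -0.54 for Jag1 and -0.38 for Notch1. It was -0.18 for Hey1, -0.11 for Notch2, -0.04 for Notch4 and -0.04 for Dll1, so that Notch2, Notch4 and Dll1 lay close to the median of all genes. For Hes1, Notch3 and Jag2 it was positive, at 0.07, 0.12 and 0.23. The shift was not the same at every level. The median fold change was -0.19 over rows past the filter, 0.15 over rows below it and -0.05 over the receptor genes. The median of all genes is thus a rough reference for a dim gene such as Dll1. For 3 of the 10 members all hypoxia arrays lay below all normoxia arrays, where 14.5% of all genes did so. For 0 members all lay above, against 1.87% of all genes. The interquartile range of log2 intensity over all rows ran from 2.77 to 2.90 in normoxia and from 2.51 to 2.61 in hypoxia, whereas the array medians lay between 2.38 and 2.44 in both groups. The part of this difference in spread in the common shift was not tested.

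Single rows showed how evenly each gene moved. Of the 276 rows, 211 passed the filter. Among these, 18 (8.53%) had all hypoxia arrays below all normoxia arrays and 3 (1.42%) all above, where the shares over all rows were 6.75% and 2.24%. By limma on rows 0 member rows were called in either direction (0.0334% of all rows were lower and 0.146% higher).

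Jag1 and Notch1 had rows that mostly shared 1 sign. Over all rows past the filter 65.5% had a negative fold change. Of the 31 Jag1 rows 30 had a negative fold change, with a median of -0.67, and on 6 rows the groups did not overlap. The brightest of these, probe set 4799542, read 6.65, 7.11, 6.85 and 6.88 in normoxia and 6.57, 6.30, 6.57 and 5.40 in hypoxia. Probe set 5406533 read 6.12, 6.33, 6.16 and 6.36 in normoxia and 5.54, 4.25, 5.30 and 5.37 in hypoxia, a fold change of -1.12. On both rows the highest hypoxia array lay below the lowest normoxia array. Of the 38 Notch1 rows 34 were negative, with a median of -0.65 and 4 rows without overlap, of which probe set 4562330 had the lowest fold change, at -1.23. Dim Notch1 rows could pass the filter through their normoxia values, as described for Heyl below. The Notch1 rows below the filter had a median fold change of 0.11. With them included the gene's fold change was -0.47 (adjusted p = 0.070 by limma).

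The 7 Heyl rows all had negative fold changes, where 65.5% of all rows past the filter did. The diffSplice test of limma, an F test of unequal fold changes among the rows of a gene, gave an adjusted p of 0.63 over 16543 genes, so no difference between the Heyl rows was detected. The brightest row, probe set 5468728, read 5.88, 5.02, 6.01 and 5.46 in normoxia and 6.33, 4.81, 5.58 and 5.27 in hypoxia, a fold change of -0.09 with overlapping groups. The other 6 rows, with 8-array means between 2.39 and 4.12, had fold changes from -1.58 to -0.44. The filter used the mean of all 8 arrays, so a dim row could pass through its normoxia values alone. The fold change of such a row is not independent of the filter. Probe set 5161284 passed at 2.39, with 3.04, 2.52, 3.22 and 3.33 in normoxia and 2.70, 1.40, 1.03 and 1.92 in hypoxia. Probe set 4985181 was the only Heyl row without overlap, at 5.07, 4.43, 4.75 and 4.92 in normoxia against 3.23, 2.02, 4.22 and 3.37 in hypoxia. The 7 Heyl rows below the filter had a median fold change of -0.03, and with them included the gene's fold change was -0.54 (adjusted p = 0.084).

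**Figure D3:**
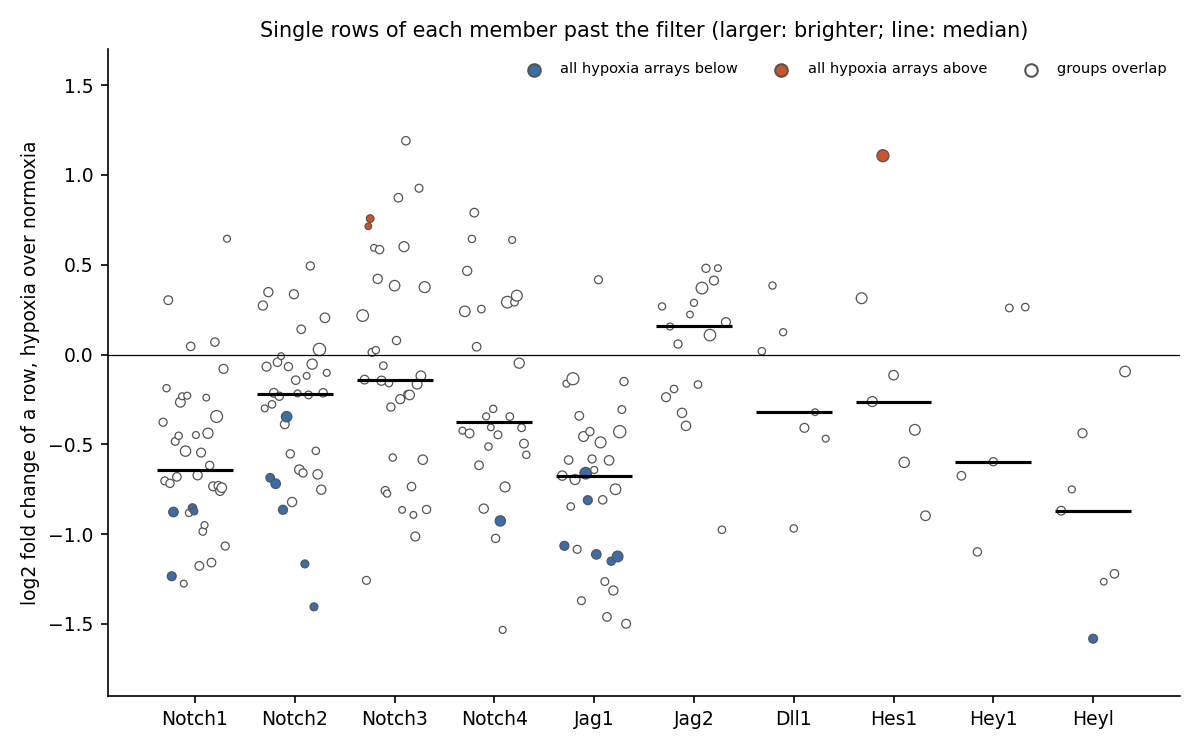
Log2 fold change (y axis, hypoxia over normoxia) of every row of each member that passed the filter, in order of probe set number within a gene. Larger points are brighter rows, filled points are rows whose groups do not overlap, and lines are the median per gene. Jag1 and Notch1 lie almost wholly below 0, where 65.5% of all rows past the filter do. The brightest Hes1 row lies above all other Hes1 rows, at 1.11.

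Every member but Heyl held rows with fold changes of both signs. Negative and positive rows numbered 6 and 11 for Jag2, 18 and 10 for Notch4, 20 and 15 for Notch3, and 5 and 2 for Hes1. For Hes1 the brightest row, probe set 4984289, read 6.43, 7.04, 6.82 and 5.74 in normoxia and 7.35, 7.24, 7.68 and 8.18 in hypoxia, so that all hypoxia arrays lay above all normoxia arrays. Its fold change was 1.11 (unadjusted p = 0.0095, adjusted p = 0.24 by limma on rows), while the other 6 rows lay between -0.90 and 0.31. The diffSplice test gave an adjusted p of 0.13 for Hes1 and 0.081 for Notch3, whose 35 rows ran from -1.26 to 1.19 with 15 positive. None of the 10 members passed that test, where 4.27% of genes did. Of the other members, Notch2 had 6 of 36 rows with all hypoxia arrays below, Notch4 had 1 of 28, and Jag2, Dll1 and Hey1 had 0.

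Genes whose values over the 8 arrays followed Heyl most closely were Scrib, a cell polarity gene (Pearson r = 0.990 with 8 arrays), Ngef, a guanine nucleotide exchange factor (0.986), and Cnksr2, a scaffold protein of Ras signalling (0.985). None of the 3 passed the test, with adjusted p from 0.074 to 0.16. These correlations are a description over arrays that share the group difference and the scaling.

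Outside the members, 59 genes of the wider pathway were tested, of which 0 were called in either direction by limma. At an unadjusted p under 0.05, 16 were lower and 2 higher, where 20.4% and 3.02% of all genes were. For 13 of the 59 all hypoxia arrays lay below all normoxia arrays, where 14.5% of all genes did so. For 2 of the 59 all lay above, where 1.87% of all genes did so. The median fold change was -0.24, against -0.19 for all genes. Of the 59, 53 were negative and 6 positive, where 75.7% of all genes were negative. The lowest adjusted p was 0.084, for Hes5, a Hes-family target.

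Along the pathway, the genes named are the brightest of each group. Dlk1, a ligand-like protein related to Delta, was at 5.24 ± 0.15 in normoxia and 4.72 ± 0.28 in hypoxia (SD, n = 4), a fold change of -0.52 ± 0.16 (SE, adjusted p = 0.12). In receptor cleavage, 0 of 9 genes were called, and Psenen, a subunit of gamma-secretase, had a fold change of -0.08 ± 0.15. In receptor glycosylation, 0 of 5 were called, and Rfng, a fringe glycosyltransferase, had -0.36 ± 0.12 (adjusted p = 0.14), with all hypoxia arrays below all normoxia arrays. In ubiquitin transfer and endocytosis, 0 of 13 were called, and Dtx3, a Deltex-family protein, had -0.01 ± 0.12.

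In the nucleus, Rbpj, the DNA-binding partner of the Notch intracellular domain, was at 6.04 ± 0.20 in normoxia and 6.18 ± 0.12 in hypoxia, a fold change of 0.14 ± 0.13 (adjusted p = 0.55). It was the 1 of 9 nuclear activators with a positive fold change, and 0 were called. Of 11 nuclear repressors 0 were called, and Hdac2, a histone deacetylase, had a fold change of -0.15 ± 0.17. Hes5, the brightest of 7 other targets, read 4.61, 4.41, 4.76 and 4.41 in normoxia and 4.09, 4.05, 4.01 and 4.13 in hypoxia, with no overlap and a fold change of -0.47 ± 0.12 (adjusted p = 0.084). All 7 other targets had negative fold changes, with a median of -0.39, where 75.7% of all genes had a negative fold change. The value of Hes5 rested on 3 rows, and 2 of the 7 targets lay at or below the median of the receptor genes.

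**Figure D4:**
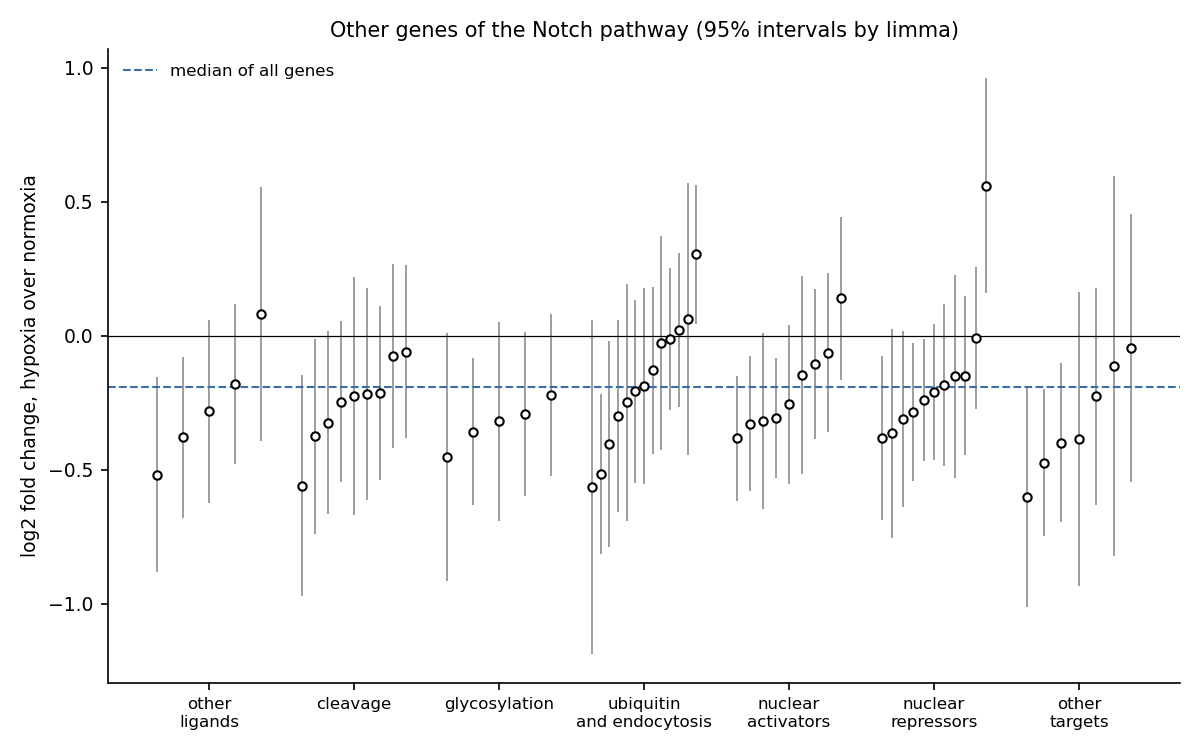
Log2 fold changes (y axis, hypoxia over normoxia) with 95% intervals by limma for the 59 other genes of the Notch pathway, by group on the x axis and ordered by size within a group. None passed the threshold, most lie below 0, and the dashed line marks the median of all genes at -0.19.

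Genes known to respond to low oxygen rose on the hypoxia arrays, 6 of 6 in a control list, among them Bnip3, which acts in mitophagy, by 3.40 on the log2 scale, Egln3, an oxygen-sensing prolyl hydroxylase, by 2.75, Pdk1, a kinase that limits pyruvate entry into mitochondria, by 2.44, and Slc2a1, a glucose transporter, by 1.46. Fibroblast markers were all above the median of the receptor genes (10 of 10), and 0 were called. Their summed intensities were 3003 to 3068 in normoxia and 2874 to 2940 in hypoxia, without overlap. For 1 of the 10 all hypoxia arrays lay below all normoxia arrays, and for 2 all lay above (14.5% and 1.87% of all genes). Since Notch4, Notch3 and Heyl are also expressed by vessel cells, markers of those were read as well. Of 8 endothelial markers 0 were called. Of the 8, 2 lay below the median of the receptor genes, Kdr and Tek, and the rest lay above it. Their summed intensity was 89.8 to 113 in normoxia and 87.3 to 102 in hypoxia. Of 7 mural markers 0 were called, Kcnj8 lay below that median, and the summed intensity was 1582 to 1722 in normoxia and 1132 to 1216 in hypoxia, without overlap. Most of that sum was Acta2, smooth muscle actin, with a mean gene value of 10.59 in normoxia and 10.10 in hypoxia, while the group means of the other 6 lay between 2.40 and 5.05. For 3 of the 7, Acta2, Myh11 and Kcnj8, all hypoxia arrays lay below all normoxia arrays, where 14.5% of all genes did so. The part of the mural markers in the difference of Heyl was not tested, and in bulk samples fewer cells of a type and less RNA per cell cannot be told apart. Of 6 epithelial markers only Krt19, a keratin, was called, with a rise of 1.48 (adjusted p = 0.0049). Of these 6, 4 had negative fold changes, and the median of the 6 was -0.15. For the remaining types, 0 of 6 blood and macrophage, 0 of 4 neural and 0 of 4 myogenic markers were called.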

How the data were processed

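Linear intensity, as deposited by the authors, was read for 641130 rows on 8 arrays, 4 per group. The authors' background correction, normalization and probe summary for it were not given in the sources used here. Values were taken as deposited, on a log2 scale with no pseudocount. Rows were named by the platform annotation, and 307991 (48%) named 1 gene. Its symbols were updated through RefSeq, with 63 of 21842 kept as given. Rows naming several genes were left out, 2 of them Jag2's. Rows whose 8-array mean was below the table median were removed, which left 191376 rows and 18848 genes. The two-sided test was limma (version 3.58.1, under R 4.3.3) with moderated variances and the group as its single term, adjusted over all genes by Benjamini-Hochberg. The fit was tested on simulated data. Each of the 10 members was named, with the called and the brightest uncalled gene of each pathway group, 4 hypoxia genes, the 3 genes most correlated with the member of smallest p, and markers called or at background. The members and lists were chosen with earlier results of these data known. Alternatives covered scaling, filter, gene summary, test, block and single arrays. The number of arrays limits the precision. The study's methods give another number of replicates than the labels, which were followed. The study's own rank method for single probes was not used here. Figures were drawn with matplotlib 3.10.9.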

Additional observations from a re-analysis of the deposited data

How the results depend on the processing

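Directions of Heyl, Jag1, Notch1, Notch2, Notch4, Jag2 and Hey1 held under every alternative run for them, 19 each and 18 for Hey1, whose rows all fell below the 75th percentile filter. The log2 fold change of Heyl ran from -1.13 to -0.50 and its adjusted p from 0.029 to 0.14. The number of members called lower was 0 under quantile normalization, cyclic loess, relative ranks, centring on the array median and the replicate block, 0 in each fit without 1 array, and 2 with an offset of 8, with trend and robust fitting and with array weights. It was 1 with no filter and with the 75th percentile filter, where the call was Jag1 and not Heyl (adjusted p of Heyl 0.084 and 0.097). The relative-rank difference of Heyl was -12.8 points on a scale of 0 to 100. The sign turned for Dll1 with no filter (0.041), for Hes1 with cyclic loess (0.035), centring (0.063) and no filter (0.037), and for Notch3 with quantile normalization (0.015), cyclic loess (0.087) and centring (0.12). Without 1 array Notch3 ran from -0.11 to 0.012, the latter without hypoxia array 3. The causes were not tested.

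Over all genes, 100 were higher and 150 lower. The split was 126 to 53 with quantile normalization, 146 to 34 with cyclic loess, 40 to 18 with relative ranks, 141 to 8 with centring, 157 to 333 with the offset, 217 to 259 with no filter, 123 to 234 at the 75th percentile, 72 to 25 with the median of rows, 142 to 417 with trend and robust fitting, and 122 to 257 with array weights. Without 1 array 54 to 74 genes were higher and 7 to 51 lower. Of the member rows past the filter, 18 (8.53%) had all hypoxia arrays below, where 6.75% of all rows did. With no filter it was 19 (6.88%), where 4.74% of all rows did. The count was 12 with quantile normalization and 12 with relative ranks, for which the share over all rows was not computed. With no filter 6 (2.17%) had all above, where 3.15% of all rows did, and 0 passed limma on rows in either direction.

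With the replicate number as a block, 34 genes were higher and 3 lower, and the adjusted p of Heyl was 0.14. The same-numbered arrays deviated together with correlations of -0.12 to 0.07, and the labels do not say what a number stands for, so the numbers were not taken as pairs. Wider pathway genes called were 0 under each alternative.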
